A study of Aedes aegypti with 5 samples.

Results

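Salivary glands of female *Aedes aegypti* taken 3 hours post feeding (3 hpf) were compared with those of unfed females on an oligonucleotide array of the salivary gland transcriptome. Every gene probe of the array was included, which gave 433 probes from 435 gene spots among 480 positions, since 1 probe was spotted 3 times. The comparison used 6 of the 15 arrays of the series, 3 for 3 hpf and 3 for unfed. The remaining arrays hold glands at 1, 24 and 48 hpf.

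The 3 hpf group was RNA of dissected glands pooled from 10 females of the Higgs white eye strain that had engorged fully on a BALB/c mouse. The unfed (naive) group was RNA of glands from females of that colony and age, for which no pool size is stated. All mosquitoes of both groups were free of pathogens, had taken no earlier blood meal, and were starved for 16 h before the feeding. Each group was 1 RNA pool run on 3 arrays, so every test below compares these pools and measures only the spread between arrays. In such whole-gland RNA, fewer cells of a type and less RNA per cell cannot be told apart.

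The female salivary gland is an acinar tissue that stores saliva and releases it while the mosquito probes and feeds. Saliva holds proteins that keep host blood flowing, such as apyrase, which degrades the platelet activator ADP, and the D7 proteins, which bind biogenic amines and eicosanoids. It also holds antimicrobial peptides, sugar-digesting enzymes and mucins, and the gland has to refill its stores after the meal. The question here was which transcripts had moved when the glands were sampled 3 hours after engorgement.

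Each value below is a normalized intensity. The average of the 22 empty spots was taken off every spot, and the result was expressed relative to the average of the actin and ribosomal protein S5 spots treated in that way. A value of 0 is thus the mean of the empty spots. That mean and its SD were raised by 3 bright empty spots, at positions 15, 24 and 111. On unfed array 3 these had raw intensities of 10392 to 22045. The other 19 had 2724 to 4383 there, and the mean was 4912. On each array a probe counted as above the empty spots if it lay over 2 SD beyond their average, and as saturated if its raw intensity reached 60000, near the end of the scanner's scale. Per array, 143 to 149 probes at 3 hpf and 132 to 146 in unfed glands were above the empty spots, and 50 to 63 at 3 hpf and 48 to 64 in unfed glands were saturated. With the empty spots' median and median absolute deviation instead, 234 to 343 probes at 3 hpf and 330 to 433 in unfed glands were above. Below, the level of the empty spots refers to the limit from their mean and SD. Of the 433 probes, 264 were above the empty spots on none of the 6 arrays. Another 46 were saturated on all 6, where no fold is measured. Leaving out S5, 109 probes not saturated throughout lay above the empty spots on 2 or more arrays of a group, and these are called measured below.

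Salivary markers were bright in both groups. Of 15 probes for apyrase, D7 proteins, the 30 kDa allergen, antigen 5, amylase, alpha-glucosidase and purine nucleosidase, 13 exceeded the empty spots on most arrays at 3 hpf and 13 in unfed glands, and 10 were saturated on all 6 arrays. For other tissues, the muscle list held actin and myosin light chain, with a summed level of 0.103 to 0.280 per array at 3 hpf and 0.322 to 0.870 in unfed glands. Actin was above the empty spots on 0 of 3 arrays at 3 hpf and 3 of 3 unfed arrays, and myosin light chain (AE-377) on 0 of 3 in each group. The fat body list held a pair of ferritin probes, summing to 0.334 to 1.04 at 3 hpf and 0.301 to 0.601 in unfed glands. The midgut list held carboxypeptidase B, at 0.671 to 1.54 at 3 hpf and 1.20 to 1.63 in unfed glands, and the cuticle list a chitinase-like probe that was above the empty spots on no array. The part of these markers in the results below was not tested. No probe was named for haemocyte markers.

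The reference itself moved between the groups. Actin contributed 3.21% to 10.7% of the reference on the 3 hpf arrays, against 14.1% to 38.9% on the unfed arrays. S5, which was saturated on 2 of 3 arrays in each group, therefore had a ratio of 3 hpf over unfed of 1.26, and the probes saturated on all 6 arrays had ratios of 1.23 to 1.29. Scaling to S5 alone lowered every log2 difference above the floor by about 0.35, and calls against unfed that turn on this are given with that scaling beside them.

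By the ratio of group means, 54 of 432 probes were at least 2-fold higher at 3 hpf (12.5%) and 37 were at or below 0.5-fold (8.56%). Most of them were dim. Of the 54, 22 exceeded the empty spots on 2 or more arrays at 3 hpf, and of the 37, 12 did so on 2 or more unfed arrays. With S5 alone as reference the split was 35 higher and 54 lower. Over the 109 measured probes the median ratio was 1.27, with 71 above 1 and 38 below, and 75 lay between 0.5 and 2. The 3 hpf and unfed arrays did not overlap for 23 probes that were higher at 3 hpf (5.32%) and 11 that were lower (2.55%).

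In limma, with each normalized intensity raised to at least 0.242 before taking log2, 3 probes were higher at 3 hpf (0.694% of 432) and 0 were lower (0.0%), with 16 higher and 5 lower at an unadjusted p under 0.05. The methods' t-test gave 1 higher and 0 lower after Benjamini-Hochberg adjustment. Arrays with the same replicate number deviated together, and with that number as a block limma called 54 probes higher (12.5%) and 8 lower (1.85%). Of the 54, 36 were saturated on all 6 arrays, where the ratio holds no fold of their own. The other 18, and all 8 lower ones, were measured probes. With the block and S5 alone as reference, 3 were higher (0.694%) and 4 lower (0.926%), and 6 of these were also called with the block on the deposited reference. Every adjusted p below is limma's with Benjamini-Hochberg adjustment over 432 probes, and passing limma refers to the deposited normalization without or with the block. Where the dimmer group was above the empty spots on 0 or 1 array, any fold of a named probe is given as at least N-fold, and ratios with 2 such arrays include 1 dim value. These bounds hold on the deposited normalization only. S5 alone shifts the log2 ratio by about -0.35, so bounds for probes higher at 3 hpf would be smaller with it.

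**Figure D1:**
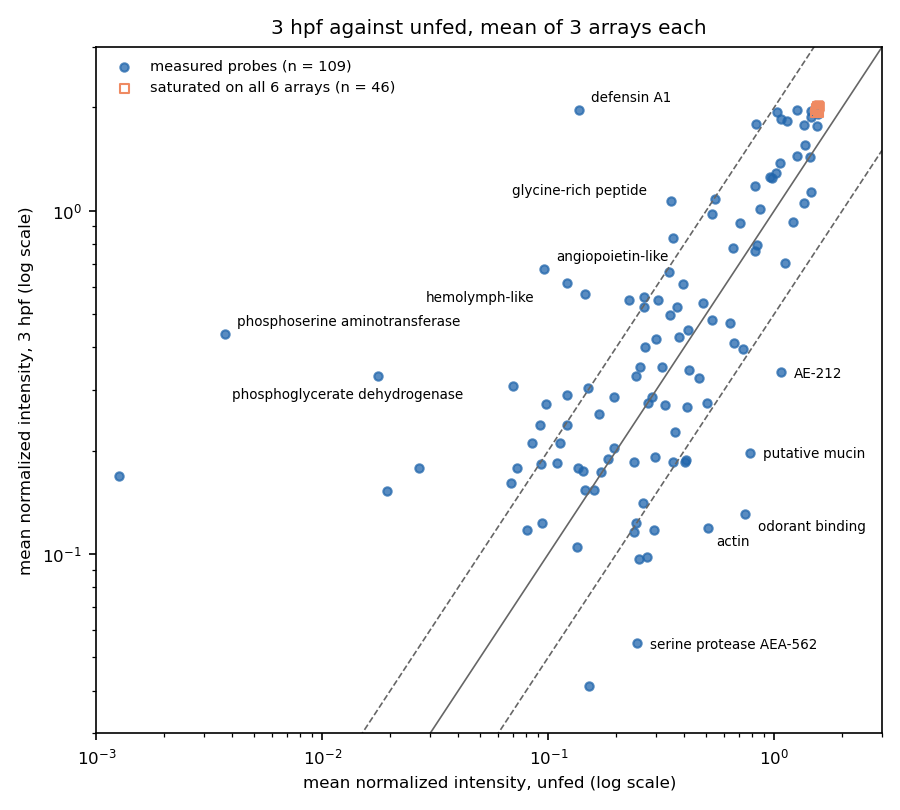
Mean normalized intensity at 3 hpf (vertical axis, log scale) against unfed (horizontal axis, log scale), 3 arrays per group. Circles are the 109 measured probes and squares the 46 probes saturated on all 6 arrays, the solid line marks equal means and the dashed lines ratios of 2 and 0.5. Defensin A1, near the ceiling at 3 hpf, lies far above the line, and the odorant binding protein lies well below it. Positions of probes near the level of the empty spots are not measured folds.

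An immune gene gave the smallest adjusted p of the 432 probes. Defensin A1 (S82860), a secreted peptide that kills mainly Gram-positive bacteria, had 2.14, 1.96 and 1.80 at 3 hpf and 0.163, 0.0712 and 0.174 in unfed glands. It was saturated on all 3 arrays at 3 hpf and above the empty spots on 1 of 3 unfed arrays, so it was at least 12.8-fold higher at 3 hpf (log2 fold change after the floor 3.02 ± 0.32, SE; adjusted p = 0.000494). All 3 unfed values were raised to the floor in this fit, and those at 3 hpf were saturated. Leaving out any unfed array therefore kept the log2 fold change at 3.02. Neither these omissions nor the SE take in how far the unfed values of this probe varied. The call held on leaving out any of the 6 arrays, with adjusted p of 0.00398 to 0.00470, and with S5 alone as reference (adjusted p = 0.00237). Dividing each array by its median gene probe gave a log2 fold change of 0.87 (adjusted p = 1). That divisor lay at the level of the empty spots, so this scaling cannot test the call. The angiopoietin-like protein AE-6349, of the fibrinogen-related family whose members bind microbial surfaces in mosquitoes, had 0.414, 0.516 and 1.10 at 3 hpf and 0.123, 0.0448 and 0.119 in unfed glands. All 3 arrays at 3 hpf were above all unfed arrays, and 1 unfed array was above the empty spots. It was at least 4.43-fold higher (adjusted p = 0.225, and 0.0090 with the block), and was not called with the block and S5 alone. Its spot was brighter than its own local background on 3 of 3 arrays at 3 hpf and on 0 of 3 unfed arrays. A splice variant of the same gene (AE-154) was saturated on all 6 arrays.

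I23Ma (AEA-233) had 2.09, 1.95 and 1.79 at 3 hpf, all saturated, and 0.827, 1.07 and 1.19 in unfed glands, 1 of these saturated. The ratio of means was 1.89 (log2 fold change 0.93 ± 0.17, SE; adjusted p = 0.0365), with no overlap of the arrays. With saturation in both groups, neither this ratio nor the log2 value is a measured fold. This call held without unfed array 3 and was lost on leaving out any other of the 6 arrays (adjusted p of 0.0302 to 0.170), as it was with S5 alone (adjusted p = 1). Bacteria responsive protein 1 (AEA-871BRE), of the chitinase-like family, had 0.587, 0.915 and 1.44 at 3 hpf and 0.385, 0.440 and 0.766 in unfed glands. Gambicin (AF466602), a cysteine-rich antimicrobial peptide of mosquitoes, had 1.80, 1.90 and 1.79 at 3 hpf, of which 2 were saturated, and 1.04, 1.20 and 1.16 in unfed glands. Their ratios were 1.85 and 1.61, and both were called with the block (adjusted p = 0.0090 and 0.0454) but not without it, nor with the block and S5 alone. The C-type lectin AE-189, a carbohydrate-binding protein, was saturated on all 3 arrays at 3 hpf and on 2 unfed arrays, so no fold is given, and was called with the block (adjusted p = 0.0247) but not without it (0.9). This lectin was not called with the block and S5 alone.

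Not every immune probe was higher. Peptidoglycan recognition protein (AE-7210), a sensor of bacterial cell walls, had 0.199, 0.225 and 0.606 at 3 hpf and 0.291, 0.304 and 0.659 in unfed glands, lower within each pair of same-numbered arrays. The C-type lectin AET-11911 and the glycine-rich antimicrobial probe AET-590 had ratios of 1.04 and 1.01. A possible antimicrobial peptide with an HHH motif (AET-462) was at least 1.53-fold higher, without passing limma, and was brighter than its local background on 1 of 3 arrays at 3 hpf. Its log2 fold change after the floor was 0.34, and 0.18 with S5 alone. Of the 20 immune probes, 6 were saturated on all 6 arrays and 11 were measured. Among the 11, limma called 2 higher without the block and 6 with it, and 0 lower in either fit, against 3 and 18 higher among all 109 measured probes. The median ratio over the 11 was 1.67, beside 1.27 over the 109. With S5 alone these medians were 1.29 and 0.981. With the block and S5 alone, 1 of the 20 immune probes was called higher, against 3 of all 432.

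**Figure D2:**
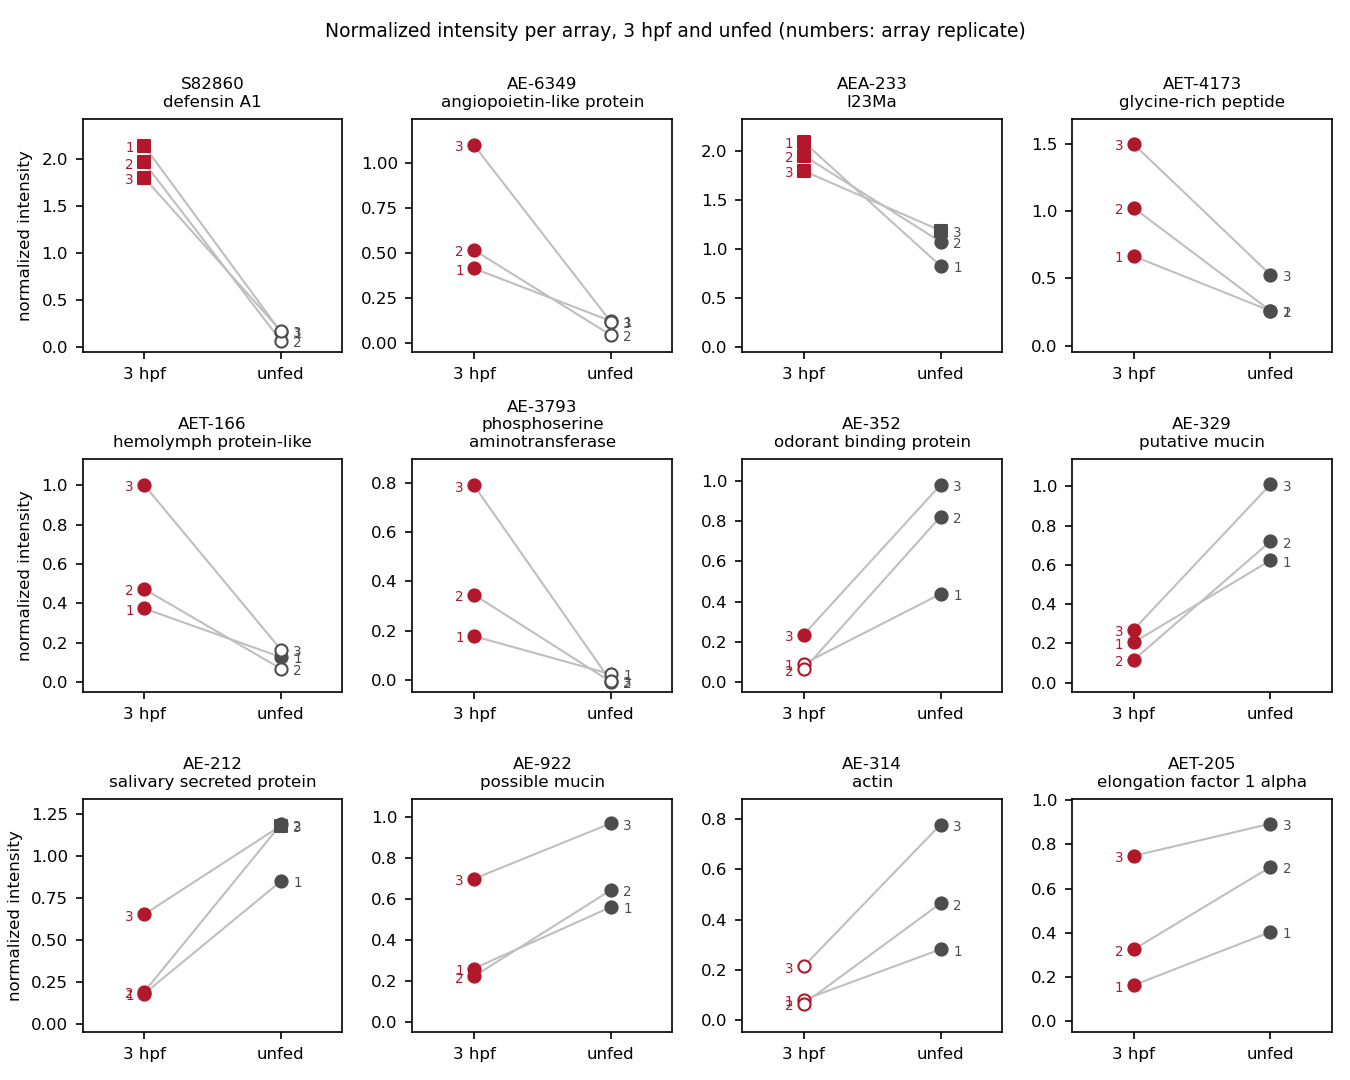
Normalized intensity of 12 probes on each array, with 3 hpf (red) left of unfed (grey) in every panel and lines joining arrays with the same replicate number. Filled symbols are above the empty spots, open symbols are not, and squares are saturated. Defensin A1 lies at 1.80 to 2.14 at 3 hpf against 0.0712 to 0.174 in unfed glands, and within a group most unsaturated probes are brightest on the array numbered 3.

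Secreted peptides of unknown function moved both ways. The glycine-rich salivary peptide AET-4173 had 0.667, 1.03 and 1.50 at 3 hpf and 0.258, 0.259 and 0.527 in unfed glands. The groups did not overlap, and its ratio of 3.06 passed limma (log2 fold change 1.62 ± 0.31, SE; adjusted p = 0.0365, and 0.00337 with the block). Significance was lost without array 2 or 3 of 3 hpf or without array 1 or 2 of unfed (adjusted p of 0.00538 to 0.236 over the 6 omissions) and with S5 alone without the block (0.566), and kept with S5 alone and the block (0.0407). AET-166, annotated as similar to a hemolymph protein, had 0.375, 0.473 and 1.00 at 3 hpf and 0.128, 0.0694 and 0.166 in unfed glands, with 1 of 3 unfed arrays above the empty spots. It was at least 3.98-fold higher and was called with the block (adjusted p = 0.0202) but not with the block and S5 alone.

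Others passed with the block and not without it. AF466586 had 1.75, 1.83 and 1.79 at 3 hpf, 2 of them saturated, and 0.622, 0.818 and 1.06 in unfed glands, a ratio of 2.15 with no overlap (adjusted p = 0.0089). AEA-219 had 0.674, 0.933 and 1.63 at 3 hpf and 0.330, 0.494 and 0.821 in unfed glands. Its ratio within same-numbered arrays was close to its ratio of means of 1.97 in all 3 pairs, at 2.04, 1.89 and 1.99, and its call held with S5 alone (adjusted p = 0.00049, and 0.0104 with S5 alone, both with the block). AE-376 and AY949618 had ratios of 1.80 and 1.73 (adjusted p = 0.0077 and 0.0454 with the block). Neither these nor AF466586 were called with the block and S5 alone.

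Lower members of the class included AE-212, with 0.179, 0.190 and 0.651 at 3 hpf and 0.849, 1.19 and 1.18 in unfed glands, 1 of these saturated. The groups did not overlap and the ratio was 0.317 (log2 fold change -1.65 ± 0.48, SE; adjusted p = 0.225, 0.0146 with the block and 0.0063 with the block and S5 alone). AF466598 was lower within each pair, with a ratio of 0.742 (adjusted p = 0.0383 with the block, and 0.0462 with the block and S5 alone). The secreted peptide AET-3925 had 0.122, 0.0577 and 0.111 at 3 hpf and 0.194, 0.170 and 0.389 in unfed glands, at least 1.83-fold lower without passing limma in either fit. Over the 47 probes of this list, 17 were saturated on all 6 arrays and 21 were measured. Of the 21, limma called 1 higher without the block, and 6 higher and 2 lower with it. Their median ratio of 1.23 was close to the 1.27 of all measured probes. With the block and S5 alone, 2 of the 47 were called higher and 2 lower, against 3 and 4 of all 432.

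A pair of serine synthesis enzymes was above the limit of the empty spots at 3 hpf and not in unfed glands. This does not show absence in unfed glands, since bright empty spots raise that limit. With the empty spots' median and median absolute deviation, all 433 probes were above on unfed array 1. D-3-phosphoglycerate dehydrogenase (AET-3626) starts the pathway that makes serine from a glycolytic intermediate, and phosphoserine aminotransferase (AE-3793) carries out the next step. The dehydrogenase had 0.123, 0.251 and 0.617 at 3 hpf and 0.0247, 0.00663 and 0.0216 in unfed glands. The aminotransferase had 0.178, 0.346 and 0.789 at 3 hpf and 0.0235, -0.00751 and -0.00487 in unfed glands. Both were above the empty spots on 3 of 3 arrays at 3 hpf and on 0 of 3 unfed arrays, and were at least 1.97-fold and 2.69-fold higher at 3 hpf. Neither passed limma, where the floor lies above the dimmest 3 hpf arrays (adjusted p = 1 and 0.903, and 0.491 and 0.155 with the block). Their spots neighbour each other, at positions 405 and 406, and the probes at positions 404 and 407 were above the empty spots on none of the 6 arrays.

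S-adenosylhomocysteine hydrolase (AET-5159), which clears the by-product of methylation reactions, had 0.146, 0.219 and 0.562 at 3 hpf and 0.0643, 0.0437 and 0.102 in unfed glands. It was above the empty spots on all arrays at 3 hpf and on none in unfed glands, at least 1.93-fold higher without passing limma (adjusted p = 1, and 0.549 with the block). Selenophosphate synthetase (AET-2690), which makes the selenium donor, had 0.0667, 0.0966 and 0.293 at 3 hpf and 0.0449, -0.00156 and 0.0148 in unfed glands, above the empty spots on 2 arrays at 3 hpf. Of 13 amino acid and one-carbon metabolism probes, 6 were measured, and the unfed arrays of these 4 were all at the level of the empty spots. Kynurenine formamidase (AET-12468) and ornithine decarboxylase antizyme (AY064120) had ratios of 1.05 and 1.14. None of the 13 passed limma, with or without the block.

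Among carriers, the odorant binding protein AE-352 was lower at 3 hpf. Proteins of this family carry small hydrophobic molecules. It had 0.0917, 0.0633 and 0.237 at 3 hpf, of which 1 was above the empty spots, and 0.438, 0.822 and 0.979 in unfed glands, all above them. The groups did not overlap, and it was at least 5.58-fold lower at 3 hpf (log2 fold change -1.54 ± 0.39, SE; adjusted p = 0.152, 0.0386 with the block and 0.0845 with the block and S5 alone). The D7 proteins D7l1, D7l2, D7s1 and D7s4 were saturated on all 6 arrays. D7s2 (AF420273) had 1.91, 1.95 and 1.78 at 3 hpf and 1.64, 1.52 and 1.21 in unfed glands, with 2 arrays saturated in each group, a ratio of 1.29 that is within the range of the saturated probes.

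The D7s3 allele (AE-182) had 0.348, 0.404 and 0.898 at 3 hpf and 0.217, 0.127 and 0.342 in unfed glands, a ratio of 2.41 without overlap (adjusted p = 1, and 0.0090 with the block). It was not called with the block and S5 alone. Its spot was brighter than its local background on 1 of 3 arrays at 3 hpf and on 2 of 3 unfed arrays. The other D7s3 probe (AY951936) was above the empty spots on no array of either group. A phosphatidylethanolamine-binding protein (AET-458) had 0.171, 0.140 and 0.263 at 3 hpf and 0.197, 0.179 and 0.516 in unfed glands, lower in every pair without passing limma. Of the 12 carriers, 4 were saturated on all 6 arrays and 4 were measured, of which limma called 1 higher and 1 lower with the block and 0 without. Over all 109 measured probes, limma called 18 higher (16.5%) and 8 lower (7.34%) with the block.

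Mucins and peritrophins are heavily glycosylated proteins that coat or lubricate surfaces. The putative mucin AE-329 had 0.204, 0.115 and 0.270 at 3 hpf and 0.623, 0.720 and 1.01 in unfed glands. All 3 hpf arrays lay below all unfed arrays, and the ratio was 0.250 (log2 fold change -1.61 ± 0.36, SE; adjusted p = 0.093, 0.00249 with the block and 0.0063 with the block and S5 alone). Its spot was brighter than its local background on 0 of 3 arrays at 3 hpf and on 3 of 3 unfed arrays. The possible mucin AE-922 had 0.262, 0.224 and 0.700 at 3 hpf and 0.562, 0.644 and 0.971 in unfed glands, with a ratio of 0.545 (adjusted p = 0.9, 0.0101 with the block and 0.0542 with the block and S5 alone), with the same pattern against local background.

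In the other direction, the mucin-like peritrophin AE-466 had 0.523, 0.479 and 0.992 at 3 hpf and 0.292, 0.222 and 0.516 in unfed glands, a ratio of 1.94 called with the block (adjusted p = 0.0070) and not with S5 alone (0.201). This spot was dimmer than its local background on all 6 arrays. The proline-rich mucin AE-262 was above the empty spots on 3 arrays at 3 hpf and 1 unfed array, was also dimmer than its local background on all 6 arrays, and did not pass limma. Of 12 probes in this list, 8 were measured, with a median ratio of 1.04, and limma called 1 higher and 2 lower with the block and 0 without, beside 16.5% higher and 7.34% lower among all measured probes.

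The serine proteases split as well. AE-782 had 0.429, 0.433 and 0.816 at 3 hpf and 0.227, 0.172 and 0.394 in unfed glands, without overlap, a ratio of 2.12 (adjusted p = 0.993, 0.00036 with the block and 0.269 with the block and S5 alone). The serine protease AF466600 was saturated on all arrays at 3 hpf and on 2 unfed arrays, where its unfed values of 1.16, 1.43 and 1.21 lay below all 3 hpf values and no fold is given (adjusted p = 0.424, and 0.0843 with the block). The Clip-domain protease AET-6559, of a family that acts in immune cascades of insects, had 0.173, 0.119 and 0.338 at 3 hpf and 0.136, 0.0351 and 0.0832 in unfed glands, at least 1.33-fold higher without passing limma. Its log2 fold change after the floor was 0.16, and 0.05 with S5 alone. AEA-562 had 0.0925, 0.00560 and 0.0675 at 3 hpf, none above the empty spots, and 0.161, 0.166 and 0.417 in unfed glands, all above them. It was at least 1.79-fold lower at 3 hpf without passing limma (adjusted p = 1, and 0.559 with the block). Large trypsin (AEA-876) and the chymotrypsin-like enzyme AE-226 had ratios of 0.654 and 0.776.

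Among the protease inhibitors, a Kazal-domain peptide (AET-1428) had 0.119, 0.0647 and 0.169 at 3 hpf and 0.212, 0.210 and 0.456 in unfed glands, without overlap, at least 2.15-fold lower at 3 hpf with an adjusted p of 1. The factor Xa-directed anticoagulant AF050133, which blocks a host clotting protease, had 0.128, 0.142 and 0.589 at 3 hpf and 0.133, 0.147 and 0.308 in unfed glands, higher at 3 hpf in 1 of 3 pairs, with a ratio of 1.46. The serpins AF466599 and AET-7393 were saturated on all 6 arrays. Cystatin (AE-746) was above the empty spots on 1 of 3 unfed arrays, with its spot dimmer than its local background on all 6 arrays. None of the 4 measured inhibitors passed limma, with or without the block.

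The most abundant saliva enzymes could not be compared. Apyrase, amylase, alpha-glucosidase, purine nucleosidase and adenosine deaminase were saturated on all 6 arrays. The apyrase-like probe AET-617 had 0.979, 1.40 and 1.76 at 3 hpf and 0.892, 1.16 and 1.14 in unfed glands, a ratio of 1.30, or 1.01 with S5 alone. In the 30 kDa family, whose member aegyptin binds collagen and blocks platelet adhesion, 3 of 4 probes were saturated on all 6 arrays. The other (AY951940) had 0.116, 0.0630 and 0.191 at 3 hpf and 0.199, 0.154 and 0.381 in unfed glands, lower in every pair, at least 1.81-fold, and did not pass limma (adjusted p = 1 in both fits).

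**Figure D3:**
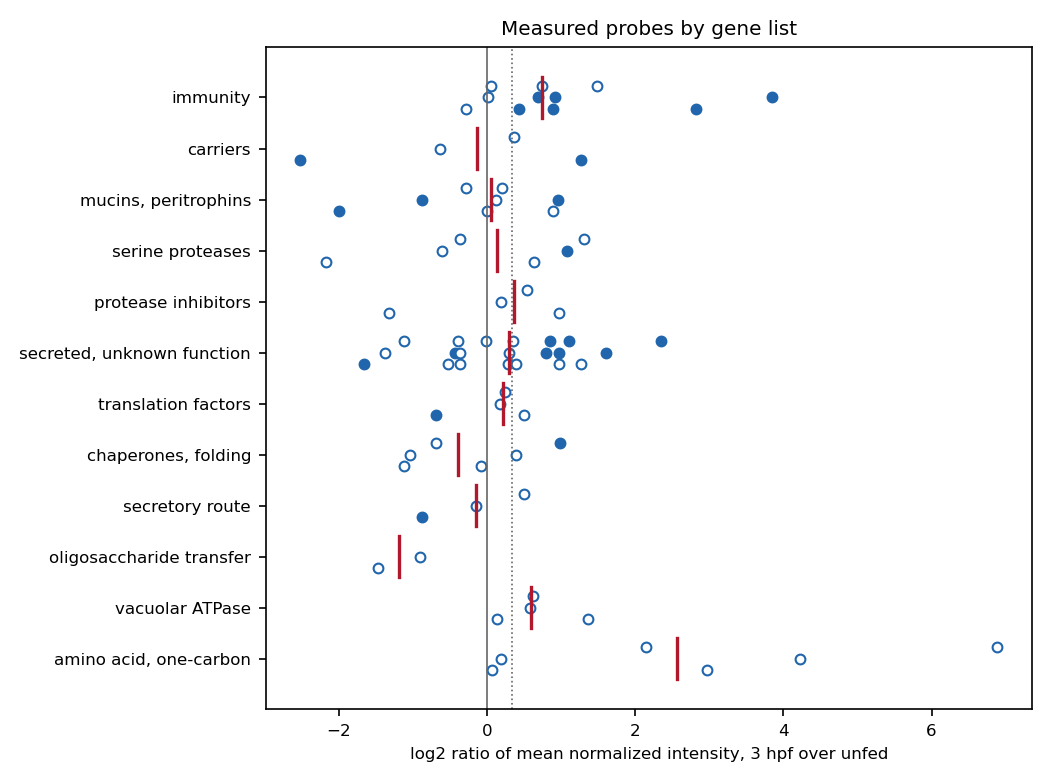
Log2 ratio of mean normalized intensity, 3 hpf over unfed (horizontal axis), for the measured probes of 12 gene lists. Filled circles passed limma with the replicate block and open circles did not, red bars are list medians, and the dotted line is the ratio of 1.26 that S5 took. Immune probes have 10 of 11 ratios above 1, beside 71 of all 109 measured probes, and some of the 10 lie below the dotted line. The highest points of the amino acid and one-carbon list rest on unfed values at the level of the empty spots.

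Housekeeping genes filled 311 of the 432 probes and most were at the level of the empty spots, with 50 measured. Actin (AE-314), the filament protein that was also a reference spot, had 0.0802, 0.0642 and 0.214 at 3 hpf, none above the empty spots, and 0.281, 0.465 and 0.779 in unfed glands. It was at least 3.74-fold lower at 3 hpf, without overlap (adjusted p = 0.225, 0.0454 with the block and 0.262 with the block and S5 alone). Since actin and S5 set the scale together, the 2 values of an array always add up to 2. Alpha tubulin (AET-2915), of the other main filament system, had 0.712, 1.28 and 1.56 at 3 hpf and 0.531, 0.906 and 1.03 in unfed glands, a ratio of 1.44 called with the block (adjusted p = 0.0438) and close to the 1.26 of S5. It was not called with the block and S5 alone.

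Translationally controlled tumor protein (AET-2239), a calcium- and microtubule-binding protein linked to growth, had 0.379, 0.838 and 1.28 at 3 hpf and 0.207, 0.312 and 0.553 in unfed glands. Its ratio was 2.33, called with the block (adjusted p = 0.00249) and not with S5 alone (0.154). The nucleosome assembly protein NAP-1 (AET-3489), a histone chaperone that was singled out after its values were seen, had 0.232, 0.504 and 0.976 at 3 hpf and 0.0802, 0.112 and 0.245 in unfed glands. It was higher in every pair with a ratio of 3.92, and did not pass limma (adjusted p = 0.9, and 0.107 with the block). An mRNA-binding protein (AY064108) had a ratio of 2.03 and did not pass in either fit.

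Genes for modifying and folding new secretory proteins in the endoplasmic reticulum had ratios on both sides of 1. The oligosaccharyltransferase gamma subunit (AE-258), part of the enzyme that attaches sugar chains to new secretory proteins, had 0.0512, 0.0613 and 0.182 at 3 hpf, none above the empty spots, and 0.120, 0.223 and 0.475 in unfed glands. It was at least 1.87-fold lower at 3 hpf. A subunit of the same enzyme, AET-394, had 0.0823, 0.0869 and 0.252 at 3 hpf and 0.134, 0.200 and 0.451 in unfed glands, a ratio of 0.536. Neither passed limma. A signal peptidase subunit (AE-284), which cleaves signal peptides, had 0.111, 0.191 and 0.522 at 3 hpf and 0.276, 0.485 and 0.746 in unfed glands, a ratio of 0.547 called with the block (adjusted p = 0.0454) and not with S5 alone (0.235).

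On the same route, protein disulfide isomerase (AET-2353) had 0.0889, 0.158 and 0.433 at 3 hpf and 0.195, 0.305 and 0.594 in unfed glands, lower in every pair with a ratio of 0.621. The translocon protein Sec61 alpha (AY064125) had a ratio of 1.42, higher in every pair, and calreticulin (AF466603), a calcium-binding chaperone, 1.31 with 2 arrays saturated in each group. None of these passed limma. Of the 26 secretory route probes 3 were measured, with limma calling 0 higher and 1 lower with the block, and of the 17 chaperones 6 were measured, with 1 called higher and 0 lower, beside 16.5% and 7.34% of all measured probes.

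Cytosolic chaperones and translation factors had no common direction. The cyclophilin AE-239, a prolyl isomerase, had 0.204, 0.440 and 0.928 at 3 hpf and 0.121, 0.206 and 0.467 in unfed glands, a ratio of 1.98 called with the block (adjusted p = 0.0454) and not with S5 alone (0.801). Another cyclophilin (AE-296) had 0.0362, 0.0759 and 0.236 at 3 hpf and 0.128, 0.186 and 0.403 in unfed glands, a ratio of 0.486, and a heat shock cognate 70 probe (AET-2544) had a ratio of 0.459, both lower in every pair without passing limma. The other heat shock cognate 70 probe (AET-381) had a ratio of 0.943.

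Elongation factor 1 alpha (AET-205), the carrier of charged tRNA in translation, had 0.163, 0.325 and 0.748 at 3 hpf and 0.404, 0.698 and 0.893 in unfed glands. Its ratio of 0.620 was called with the block (adjusted p = 0.0454) and not with the block and S5 alone (0.142). Polyadenylate-binding protein (AET-265), which binds mRNA tails, had 0.319, 0.685 and 1.11 at 3 hpf and 1.02, 1.25 and 1.09 in unfed glands, a ratio of 0.629 called with the block and S5 alone (adjusted p = 0.0141) but not with the block on both references (0.101). Elongation factor 2, elongation factor 1-gamma and ribosomal protein S4 had ratios of 1.19, 1.41 and 1.17, and the other 3 ribosomal proteins tested were saturated on all 6 arrays.

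Vacuolar ATPase subunits, which acidify organelles and energize membranes, were measured for 4 probes of 9, with ratios of 1.10, 1.50 and 1.53 for AE-4139, AET-5847 and AE-415. The c subunit (AF008924) had 0.182, 0.112 and 0.419 at 3 hpf and 0.0851, 0.0579 and 0.133 in unfed glands, above the empty spots on 3 of 3 arrays at 3 hpf and 0 of 3 in unfed glands. Its spot was dimmer than its local background on all 6 arrays. None passed limma, with or without the block. Mitochondrial porin (AET-2852) had a ratio of 1.31 and was the measured probe of 9 for mitochondrial energy and import. All 9 oxidant defence probes, among them catalase, superoxide dismutase and thioredoxin, were above the empty spots on none of the 6 arrays. Of 15 proteasome and ubiquitin probes 1 was measured (AET-397, above the empty spots on 2 arrays at 3 hpf and 0 unfed arrays), and of 24 transcription and RNA processing probes 2 were, AY064108 and AET-265.

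The 32 dim probes with a ratio of at least 2, above the empty spots on 0 or 1 array at 3 hpf, had ratios of 2.08 to 42.2 on 3 hpf values of -0.0149 to 0.233 per array. The 25 dim probes at or below 0.5-fold had unfed values of -0.0112 to 0.195. These values are at the level of the empty spots, where a ratio is not a measured fold. On the array of each group numbered 1, 7 probes at 3 hpf and 0 in unfed glands did not exceed the empty spots' average, against 146 to 165 on the arrays numbered 2 and 3. Fewer probes thus lay at or below that average on array 1 in both groups. This does not extend to dim values in general. The median normalized intensity was 0.0449, 0.0189 and 0.0657 on the 3 hpf arrays and 0.0475, 0.0158 and 0.0472 on the unfed arrays.

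Against the other times after feeding, limma called 0 probes different between 3 hpf and 1 hpf (0.0% in each direction), with 3 higher (0.694%) and 4 lower (0.926%) at 3 hpf with the block. Translationally controlled tumor protein had 0.379, 0.838 and 1.28 at 3 hpf and 0.202, 0.436 and 0.740 at 1 hpf (adjusted p = 0.0257 with the block). AEA-219 had 0.674, 0.933 and 1.63 at 3 hpf and 0.380, 0.527 and 1.01 at 1 hpf (adjusted p = 0.0026 with the block). Both were also higher at 3 hpf than at 24 hpf (adjusted p = 0.0121 for each) and 48 hpf (adjusted p = 0.00275 and 0.000255) with the block. The 30 kDa protein AY951940 was at 0.116, 0.0630 and 0.191 at 3 hpf and 0.732, 0.933 and 1.33 at 1 hpf, with no overlap (adjusted p = 0.103, and 0.000795 with the block). Peptidoglycan recognition protein was lower at 3 hpf too, against 0.686, 0.823 and 1.33 at 1 hpf (adjusted p = 0.886, and 0.000795 with the block).

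Compared with 24 hpf, limma called 1 probe, lower at 3 hpf (0.231%), and with the block 4 higher (0.926%) and 1 lower (0.231%). The lower one was the odorant binding protein AE-352, which had 2.53, 2.17 and 1.90 at 24 hpf, 2 of them saturated (log2 difference -3.17 from the floor, where all 3 hpf values were set, adjusted p = 0.00196). Compared with 48 hpf, 1 was higher (0.231%) and 1 lower (0.231%) without the block, and 16 (3.7%) and 1 (0.231%) with it. Defensin A1 was higher at 3 hpf than at 48 hpf, where it had 0.324, 0.330 and 0.827 (log2 difference 2.14, adjusted p = 0.0141), and AY951940 was lower than at 48 hpf, where it had 0.675, 0.955 and 1.47 (log2 difference -2.02, adjusted p = 0.047). With S5 alone and no block, 1 probe differed from 48 hpf, so at most 1 of these calls held. The calls with the block against the other times are not given with S5 alone. Phosphoserine aminotransferase (AE-3793) had -0.00215, 0.00968 and 0.0354 at 1 hpf and 0.0538, 0.120 and 0.317 at 24 hpf, without passing limma against 3 hpf in either fit.

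**Figure D4:**
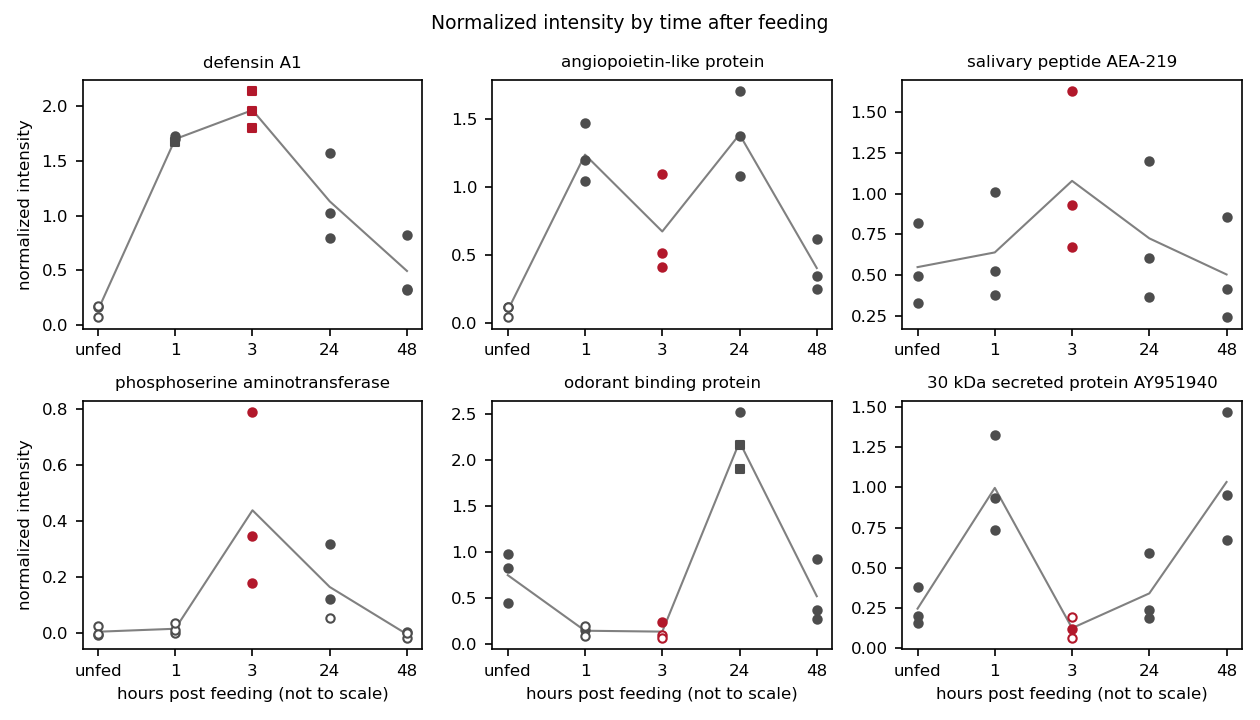
Normalized intensity of 6 probes per array (points) and the group mean (line) in unfed glands and at 1, 3, 24 and 48 hpf, with 3 hpf in red. Filled symbols are above the empty spots, open symbols are not, and squares are saturated. Defensin A1 is at its ceiling at 3 hpf, while the odorant binding protein and AY951940 lie at 0.0633 to 0.237 and 0.0630 to 0.191.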

How the data were processed

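Spots were quantified by the authors with the GEArray Expression Analysis Suite on custom nylon arrays of 60-mer probes, each hybridized with 8 µg of biotin-labelled cRNA made from 200 ng of total RNA, 3 arrays per group and 15 in all. The deposited raw intensity and local background of every spot were used for spot quality. The deposited normalized intensity had the mean of the empty spots subtracted and was divided by the mean for actin and S5, per the file headers, whereas the study's methods name RpL5 as reference. Recomputing it from the raw intensities gave a largest difference of 0.000129. The deposited series matrix holds a score, which the values show to be the authors' rounded ratio of group means, used only as an alternative. Tables of the authors' own ratios and p-values were not used.

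Normalized intensities were raised to 0.242, the largest 2 SD limit of the empty spots over the 15 arrays, and log2 values were fitted with limma 3.58.1 in R 4.3.3 over all 5 groups, with Benjamini-Hochberg adjustment over 432 probes (S5 left out) at 0.05. The floor understates changes of dim probes, and probes at the floor on every array were left out of the moderation. A bound, written as at least N-fold, sets the mean log2 value of the brighter group against that of the dimmer, whose arrays not above the empty spots were lifted to the lowest probe above them on that array. None is given where the dimmer group was saturated in part. Numbers paired the arrays: deviations from group means correlated at 0.282 to 0.832 over all 30 pairs of same-numbered arrays (432 probes), and at 0.535 to 0.702 for 3 hpf with unfed. The labels do not say what an array number marks. The code was tested on simulated data. Python 3.11.15 was used for the remaining steps.

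Named probes were the 10 highest and 10 lowest ratios without overlap among probes that exceeded the empty spots throughout the higher group, every probe past limma in either fit and not saturated throughout, the genes of the study's own gene table, up to 4 members of each gene list, and the reference and marker probes. A few others are given as examples of their list. Lists were drawn by keyword from the array's gene descriptions, and the members and lists were chosen with earlier results of these data known. None of the array's identifiers matched the RefSeq gene table (0 matches), so gene names are those of the array. Alternatives covered the reference, the floor, the background, filters on dim probes, the test, the block and leaving out each array.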

Additional observations from a re-analysis of the deposited data

Results flagged for a closer look

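The effect of feeding at 3 hpf was also set against that at the other times, and 3 probes passed limma for the difference itself. The odorant binding protein AE-352 was lower at 3 hpf than at 24 hpf by a log2 difference of -3.17 (adjusted p = 0.00196), with all 3 arrays at 3 hpf raised to the floor and 2 of 3 arrays at 24 hpf saturated. Defensin A1 (S82860) was higher at 3 hpf than at 48 hpf by 2.14 on the log2 scale (adjusted p = 0.0141), with all 3 arrays at 3 hpf saturated. The 30 kDa protein AY951940 was lower at 3 hpf than at 48 hpf by a log2 difference of -2.02 (adjusted p = 0.047), with all 3 arrays at 3 hpf raised to the floor. With S5 alone as reference, 1 probe differed between 3 and 48 hpf, so at most 1 of the calls against 48 hpf held.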

How the results depend on the processing

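The number of probes limma called higher at 3 hpf, 3 as reported, was 54 with the replicate block, 1 with only the 6 arrays compared, 1 with S5 alone, 1 with 4 other ribosomal probes as reference, 0 with each array divided by its median gene probe, 22 with quantile normalization, 1 on raw intensities with no reference and 1 by the methods' t-test after Benjamini-Hochberg adjustment. The median gene probe lay at the level of the empty spots, so that scaling cannot test a call. S5 was saturated on 2 of 3 arrays in each group, and 3 of the 4 ribosomal probes on all 6 arrays, so these references were near the ceiling. The number called lower, 0 as reported, was 8 with the block, 1 with only the 6 arrays, 1 with the median floor, 2 without dim probes and 25 with quantile normalization. Of alternatives chosen after seeing the data, the median of the empty spots as background gave 5 higher, and the median floor with the block gave 60 higher and 18 lower. Leaving out 1 array gave 1 to 3 higher and 0 to 1 lower. The methods' t-test gave 10 higher and 3 lower without adjustment, and 3 and 3 with the fold limits added.

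Ratios of at least 2, 54 as reported, numbered 35 with S5 alone, 34 on raw intensities, 28 with the empty spots' median, 22 without dim probes, 17 with that filter at 3 SD and 17 where spots also had to exceed their local background. Ratios at or below 0.5, 37 as reported, numbered 12, 11 and 12 under these 3 filters. Leaving out 1 array gave 35 to 76 and 25 to 62, with 62 without array 3 of 3 hpf and 35 without array 2 of unfed. With the block, 7 probes differed between 3 hpf and 1 hpf, 5 from 24 hpf and 17 from 48 hpf, against 0, 1 and 2 without it, and with S5 alone 1 differed from 48 hpf. AE-114, similar to a factor Xa inhibitor, had a log2 fold change of 0.21 as reported and -0.35 with quantile normalization (adjusted p = 0.000386). Of 70 probes followed singly, the block added 23 calls and quantile normalization 28. S5 alone lost 2. The median-probe scaling, whose divisor lay at the level of the empty spots, lost 3, defensin A1 among them. The cause of these shifts was not tested. Depth is limited at both ends, with 46 of 433 probes saturated on all 6 arrays and 264 above the empty spots on none. The latter count rests on a limit raised by the bright empty spots.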
